A study of Rattus norvegicus with 12 samples.

Results

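The genes described here are 8 genes of brown and beige fat, Ucp1, Cidea, Ppargc1a, Dio2, Cox8b, Elovl3, Ppara and Cpt1b. They were taken as every probe set whose platform gene symbol is one of these names, which gave 10 probe sets of 31099 and 8 genes of the 14218 genes with a name of their own. Ppargc1a has 3 probe sets and each other gene has 1, and all 8 genes were measured on all 12 arrays. The deposited values were taken to be log2 from their range. Each probe set had a median of 0 over the arrays, so 0 is the middle of the 12 arrays for that probe set. A value therefore says how far an array lies from that middle and nothing of how much of the transcript is present, and it cannot be told from these values whether a gene was detected at all.

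Brown fat burns lipid to make heat. The heat comes from Ucp1, a protein of the inner mitochondrial membrane that lets protons return to the matrix without making ATP, and beige fat is white fat in which such cells have appeared. Noradrenaline acting on the beta-3 adrenergic receptor of the fat cell sets the program off, and the cell then releases fatty acids, carries them into its mitochondria and burns them. In female rats the mammary epithelium grows inside a fat pad, so RNA of a whole gland includes RNA of its adipocytes.

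RNA of abdominal mammary gland pairs from Sprague-Dawley females was profiled on Affymetrix arrays, with 3 arrays of pooled RNA in each of 4 groups. Rats ate soy protein isolate, which contains plant isoflavones, or the milk protein casein from postnatal day 30 until they were killed on day 64. Rats of all 4 groups were ovariectomized on day 50 and then carried estradiol (E2) in a mini-osmotic pump, or had vehicle, for 14 days. The groups are named Soy plus E2, Soy, Casein plus E2 and Casein, and the question of the series is what soy protein and E2 do to mammary transcripts, each by itself and combined. The number of animals in a pool is not given in the sources used here, and no label states that pools of a group came from separate animals, so a p-value here reflects only the spread among the pools, which may be technical.

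Several arrays stood apart. Pools 2 and 3 of Casein plus E2 were almost identical, with an SD of their difference of 0.163 against at least 0.302 in the other 65 pairs of arrays, and they were averaged and counted as 1 sample (n = 2 for Casein plus E2, n = 3 for the other groups, 11 samples in all). The mean of 27 measured skeletal muscle genes was 2.71 in Soy pool 2 and 2.62 in Casein pool 2, against 1.17 in Casein pool 1 and between -0.64 and 0.28 on the other 9 arrays. The mean of 19 measured liver genes was 5.04 in Casein pool 3 and at most 0.20 elsewhere. The mean of 13 measured lymphocyte genes differed widely within groups. In pools 1, 2 and 3 it was -1.41, 1.76 and 2.2 for Soy and 1.41, -0.79 and 0.84 for Soy plus E2. It was -0.99, 0.63 and 0.67 for Casein plus E2, and -1.35, -1.09 and -0.97 for Casein. Soy pool 1 thus lay far below the other Soy pools in lymphocyte transcripts. Hybridisation spike-ins (18 probe sets) averaged above 0 on 6 arrays, namely Soy plus E2 pool 2, Soy pool 1, Casein plus E2 pool 1 and all 3 Casein pools. Casein pool 2, also a muscle-rich pool, stood apart at 1.11, and the others of the 6 lay between 0.065 and 0.261. The arrays below 0 lay between -0.219 and -0.0907. Since each probe set is centred on its median, a near-even split is largely built in. The 2 sides are therefore not by themselves evidence of separate sets of arrays. Pgr, which encodes the progesterone receptor and responds to estrogen, was above 0 on all E2 arrays and below 0 on all others, and its value in Soy plus E2 pool 3 (0.82) was the lowest of the E2 arrays. Since values are centred, the presence of mammary tissue could not be checked from marker levels.

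The promoters of Ucp1 and Cox8b are shown because these genes had the 2 patterns described next, a high Ucp1 value in Soy pool 1 and high Cox8b values in the muscle-rich pools. Each runs 5′ to 3′ from 250 bases before to 50 bases after the start of the gene in RefSeq (build GRCr8, minus strand for both), at chr19:41721372-41721671 for Ucp1 and chr1:205408224-205408523 for Cox8b. Capitals mark matches to the searched motifs.
Ucp1: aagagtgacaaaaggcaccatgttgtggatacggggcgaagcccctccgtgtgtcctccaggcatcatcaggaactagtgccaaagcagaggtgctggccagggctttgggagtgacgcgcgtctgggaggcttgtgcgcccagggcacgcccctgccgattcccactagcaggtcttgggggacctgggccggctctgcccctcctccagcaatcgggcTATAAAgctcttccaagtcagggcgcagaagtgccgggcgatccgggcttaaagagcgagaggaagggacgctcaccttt
Cox8b: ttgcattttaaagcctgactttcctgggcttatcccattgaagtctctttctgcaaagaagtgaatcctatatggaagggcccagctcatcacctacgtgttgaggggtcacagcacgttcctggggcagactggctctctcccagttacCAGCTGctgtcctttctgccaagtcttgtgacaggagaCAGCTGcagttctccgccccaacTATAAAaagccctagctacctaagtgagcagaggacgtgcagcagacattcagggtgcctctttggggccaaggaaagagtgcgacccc
The motifs were searched on both strands, and none of the marked matches overlap, though an estrogen response element can hold the receptor half-site. They were TATAAA, the TATA box, which 14.2% of 33469 rat promoter windows of this length hold, and CAGCTG, the E-box that muscle regulators bind, held by 15.1%. The others were AGGTCA, the half-site of many nuclear receptors (16.2%), TGACGTCA, the cAMP response element (1.83%), and GGTCANNNTGACC, the estrogen response element (0.0269%). The Ucp1 window holds TATAAA once, 30 bases before the start, and the Cox8b window holds CAGCTG 2 times, 100 and 62 bases before the start, and TATAAA once. A window was found for 7 of the 8 genes, and of the other 5 Ppargc1a holds TGACGTCA once, Dio2 TATAAA once and Elovl3 CAGCTG once. Cidea and Ppara hold none of the 5 motifs, and neither AGGTCA nor the estrogen response element stands in any of the 7 windows. Cpt1b had no entry.

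Ucp1 was high in 1 pool. Its values in pools 1, 2 and 3 were 0.15, -0.03 and -0.15 for Soy plus E2, 1.94, 0.24 and 0.03 for Soy, -0.19, -0.06 and -0.33 for Casein plus E2, and 0.12, 0.18 and -0.21 for Casein. Soy pool 1 stood alone, and all other arrays lay within a narrow band around 0. The SD of Ucp1 over the 11 samples was 0.61, larger than that of 93.8% of genes, and 0.17 without Soy pool 1, against a median of 0.18 over all genes. Among the 2036 genes whose highest value was in Soy pool 1 (14.3% of all genes), Ucp1 had the largest excess over the next sample, 1.69, followed by the transcription factor gene Pou3f3 with 2.12 against 0.96 and Nnat with 1.54 against 0.42. These 2 genes were named after their values were seen, and the place of Ucp1 is a description of an array singled out beforehand because Ucp1 was high there.

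**Figure D1:**
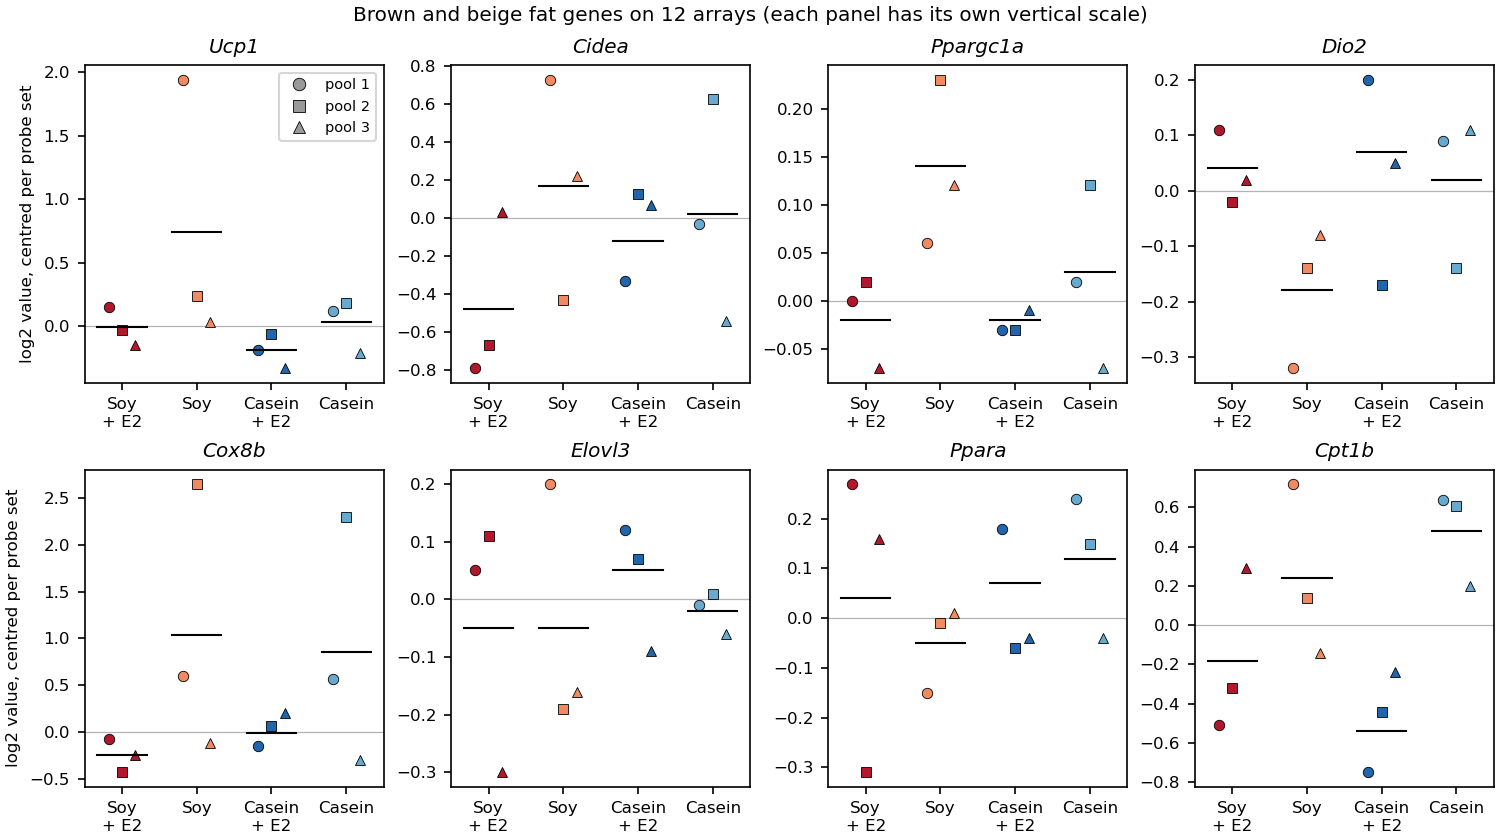
Centred log2 values (vertical axes, each gene on its own scale) of the 8 brown and beige fat genes on 12 arrays in the 4 groups. Points are pools, with shapes for the pool number, and black lines are group means in which Casein plus E2 pools 2 and 3 count as 1 sample. Ucp1 stands at 1.94 in Soy pool 1 and at 0.24 or lower elsewhere, and Cox8b stands at 2.65 in Soy pool 2 and 2.30 in Casein pool 2.

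Other brown fat genes did not all share the high value of Soy pool 1. Cidea, Elovl3 and Cpt1b were also highest there, at 0.73, 0.20 and 0.72, but the next sample lay close, at 0.63, 0.12 and 0.64. Dio2 had its lowest value there, -0.32, and Ppara was at -0.15. Ebf2, a transcription factor of brown fat precursors in mice, was at 1.96 in Soy pool 1 against 1.05 in the next sample. Prdm16, the coregulator that sets brown fat identity in mice, was at 0.37 there, close to its values in Casein pools 1 and 3 (0.31 and 0.33). Tmem26, a beige marker in mice, was at 0.67 against 0.49 in Casein plus E2 pool 1. Ucp3, the muscle and brown fat relative of Ucp1, was at 0.61 against 0.33 in Casein pool 2. Zic1, a marker of classical brown fat in mice, was at 0. The mean of 29 other brown and beige markers, with Tmem26 and Ucp3 among them, was 0.10 in Soy pool 1. It was 0.18 in Casein pool 2 and 0.19 in Casein pool 3.

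Of the 8 genes, 4 were highest in Soy pool 1. Ucp1 is 1 of these and the pool was singled out for it, so nothing is read from that count. Of 124 other measured genes of the brown fat program 20 were highest there (16.1%), close to the 14.3% of all genes. By list these were 5 of 17 thermogenic regulators (Prdm16, Cebpa, Ebf2, Esrrg and Nrip1), 3 of 16 adrenergic, thyroid and secreted signals, 5 of 29 other brown and beige markers, 2 of 21 fatty acid oxidation genes, 4 of 28 respiratory chain genes and 1 of 13 lipid synthesis genes. Skeletal muscle transcripts were low in that pool, with 4 of 27 genes above 0 and a mean of -0.57, and 0 of 27 were highest there. All 19 white adipocyte genes were above 0 in Soy pool 1, with a mean of 0.52. On the other 11 arrays that mean lay between -1.11 and 0.77. The lymphocyte mean was -1.41 in Soy pool 1, against 1.76 and 2.2 in Soy pools 2 and 3. The parts of adipocyte and lymphocyte content in the Ucp1 value were not tested.

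Cox8b, a subunit of cytochrome c oxidase found in heart, skeletal muscle and brown fat of rodents, was high in other pools than Ucp1. Its values in pools 1, 2 and 3 were -0.07, -0.43 and -0.25 for Soy plus E2, 0.60, 2.65 and -0.12 for Soy, -0.15, 0.07 and 0.20 for Casein plus E2, and 0.57, 2.30 and -0.30 for Casein. The 2 high values belong to the 2 muscle-rich pools, in which the muscle creatine kinase gene Ckm stood at 4.86 (Soy pool 2) and 4.23 (Casein pool 2). Of the 27 muscle genes, 27 were above 0 in Soy pool 2 and 26 in Casein pool 2. After these pools Cox8b was highest in Soy pool 1 (0.60), where Ckm was at -1.18. The SD of Cox8b over the 11 samples, 1.06, was larger than that of 98.1% of genes.

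Cpt1b, a form of the enzyme that lets long-chain fatty acids into mitochondria, is found in muscle and brown fat, though not only there. It was the member that changed. Its values in pools 1, 2 and 3 were -0.51, -0.32 and 0.29 for Soy plus E2, 0.72, 0.14 and -0.14 for Soy, -0.75, -0.44 and -0.24 for Casein plus E2, and 0.64, 0.61 and 0.20 for Casein. All 3 arrays of Casein plus E2 lay below all 3 of Casein, whereas Soy plus E2 pool 3 lay above Soy pools 2 and 3. In the muscle-rich pools Cpt1b was at 0.14 (Soy pool 2) and 0.61 (Casein pool 2), and in Casein pool 1, next in muscle transcripts, at 0.64. Its highest value, 0.72, was in Soy pool 1, where the muscle mean was -0.57. Over the 11 samples Cpt1b had a Pearson r of 0.87 with the white adipocyte mean and 0.47 with the muscle mean.

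**Figure D2:**
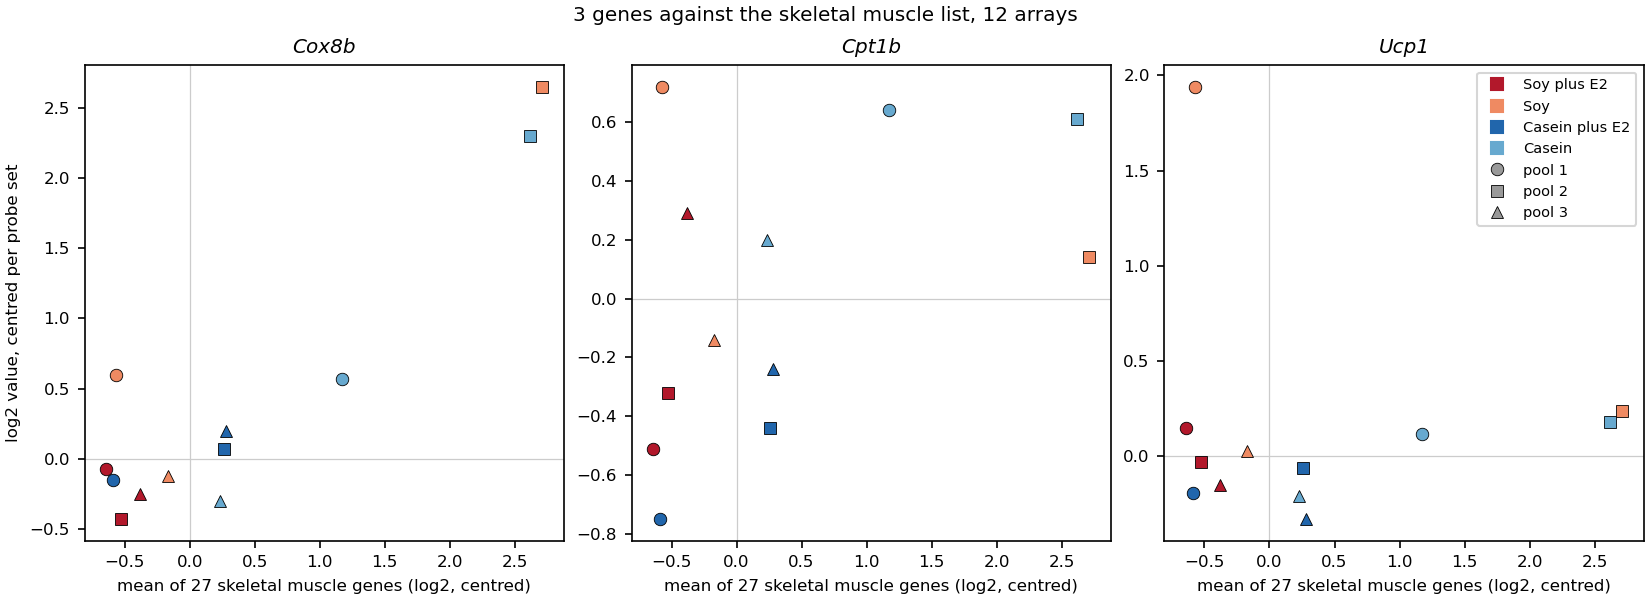
Centred log2 values of Cox8b, Cpt1b and Ucp1 (vertical axes) against the mean of 27 skeletal muscle genes (horizontal axes, log2) on 12 arrays, with colours for groups and shapes for pool numbers. Both arrays far to the right, Soy pool 2 (2.71) and Casein pool 2 (2.62), carry the 2 highest Cox8b values, while the highest Ucp1 value lies at the left (-0.57).

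Cidea, a lipid droplet protein used as a brown fat marker in mice, varied within every group. Its values in pools 1, 2 and 3 were -0.79, -0.67 and 0.03 for Soy plus E2, 0.73, -0.43 and 0.22 for Soy, -0.33, 0.13 and 0.07 for Casein plus E2, and -0.03, 0.63 and -0.54 for Casein. High and low values stood in each of the groups without E2, and all groups overlapped. The SD over the 11 samples was 0.50, larger than that of 90.9% of genes. Cidea had a Pearson r of 0.84 with the white adipocyte mean and 0.22 with the muscle mean over these samples.

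The other 4 genes varied little. Elovl3, the elongase of very long fatty acids that cold induces in mouse brown fat, ranged from -0.30 in Soy plus E2 pool 3 to 0.20 in Soy pool 1. Ppara, the nuclear receptor that turns on fatty acid oxidation, ranged from -0.31 in Soy plus E2 pool 2 to 0.27 in Soy plus E2 pool 1, so both ends lay in 1 group. Ppargc1a, the coactivator that drives mitochondrial biogenesis, ranged from -0.07 in Casein pool 3 to 0.23 in Soy pool 2. Dio2, the deiodinase that makes active thyroid hormone inside brown fat, ranged from -0.32 in Soy pool 1 to 0.20 in Casein plus E2 pool 1. The SDs over the 11 samples were 0.15 for Elovl3, 0.18 for Ppara, 0.09 for Ppargc1a and 0.15 for Dio2, at or below the median of 0.18 over all genes.

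The order of the group means was set by few pools. For Ucp1 they were -0.01 ± 0.15 in Soy plus E2, 0.74 ± 1.04 in Soy, -0.19 ± 0.01 in Casein plus E2 (n = 2) and 0.03 ± 0.21 in Casein (SD, n = 3 elsewhere). For Cox8b they were -0.25 ± 0.18 in Soy plus E2, 1.04 ± 1.44 in Soy, -0.01 ± 0.20 in Casein plus E2 and 0.86 ± 1.32 in Casein. For both genes Soy came first and Casein next, but the SD of the Soy group exceeded its distance from Casein. Cpt1b averaged -0.18 ± 0.42 in Soy plus E2, 0.24 ± 0.44 in Soy, -0.54 ± 0.30 in Casein plus E2 and 0.48 ± 0.25 in Casein. Its order from low to high was Casein plus E2, Soy plus E2, Soy and Casein, and no neighbours in this order differed beyond the larger of their SDs. Cidea averaged -0.48 ± 0.44 in Soy plus E2, 0.17 ± 0.58 in Soy, -0.12 ± 0.31 in Casein plus E2 and 0.02 ± 0.58 in Casein. Its order was Soy, Casein, Casein plus E2 and Soy plus E2, again with every step smaller than the larger SD beside it.

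The means of the 4 genes of small spread lay between -0.18 and 0.14 in every group. Ppargc1a averaged -0.02 ± 0.05 in Soy plus E2, 0.14 ± 0.09 in Soy, -0.02 ± 0 (to 2 decimals) in Casein plus E2 and 0.03 ± 0.10 in Casein. Dio2 averaged 0.04 ± 0.07 in Soy plus E2, -0.18 ± 0.12 in Soy, 0.07 ± 0.18 in Casein plus E2 and 0.02 ± 0.14 in Casein. The Soy mean was the highest for Ppargc1a and the lowest for Dio2, but for both genes the Soy and Casein pools overlapped. Elovl3 averaged -0.05 ± 0.22 in Soy plus E2, -0.05 ± 0.21 in Soy, 0.05 ± 0.09 in Casein plus E2 and -0.02 ± 0.04 in Casein. Ppara averaged 0.04 ± 0.31 in Soy plus E2, -0.05 ± 0.09 in Soy, 0.07 ± 0.16 in Casein plus E2 and 0.12 ± 0.14 in Casein, and for both genes the groups could not be put in order beyond their spread.

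With E2, averaged over both diets, Cpt1b fell and no other gene of the 8 passed the test. Cpt1b changed by -0.73 ± 0.20 (log2 change ± SE, 95% interval -1.17 to -0.28, limma with Benjamini-Hochberg adjusted p = 0.0433 over 14218 genes). It averaged -0.36 with E2 and 0.36 without. That is 1 of 8 genes lower and 0 higher, where 5.51% of all genes were called lower, 6.73% higher and 12.2% in either direction, and a count of 1 in 8 is not read as a result about the group. The median change of the 8 genes was -0.25, against 0 over all genes.

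The call for Cpt1b was close to the threshold. With each of the 12 arrays left out in turn, the call was lost in 8 fits. These include the fit without Casein plus E2 pool 1 (change -0.62), which leaves 1 sample in that group. Among the other leave-one-out fits the adjusted p ran from 0.0171 (without Soy plus E2 pool 3) to 0.0998 (without Soy plus E2 pool 2, limma). The call was also lost with a term for the spike-in split (limma adjusted p = 0.0614) and under quantile normalization (0.0522). It was lost too without the muscle-rich pools (0.131) and with the muscle mean as a covariate (0.188). In all these fits the change itself stayed between -0.84 and -0.60. Within the arrays of high spike-ins Cpt1b differed by -1.08 with E2 (-0.54 in 2 samples with E2, 0.54 in 4 without), and within those of low spike-ins by -0.19 (-0.19 in 3 samples with E2, 0 in 2 without). All 3 Casein pools were on the high side, and the low samples without E2 were only Soy pools 2 and 3. Both differences therefore mix diet with E2.

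Markers of fat and luminal epithelium changed with E2 as well, where 5.51% of all genes were called lower and 6.73% higher. Of 19 white adipocyte genes 9 fell and 0 rose, with a median change of -0.91, among them Adipoq, which encodes adiponectin (-1.50), Lep, which encodes leptin (-1.70), and Pck1 (-1.87). White adipocyte means were -1.11, -0.68 and 0.09 in Soy plus E2, 0.52, 0.03 and 0.26 in Soy, -0.75, -0.26 and -0.24 in Casein plus E2, and 0.30, 0.77 and -0.09 in Casein. Of 17 luminal epithelium genes 8 rose and 1 fell (median 0.90), while of 27 muscle genes 1 fell (median -1.09) and 0 of 19 liver genes (median -0.89) and 0 of 13 lymphocyte genes (median 0.35) passed. The part of fat content in the Cpt1b change was not tested, and in whole glands fewer adipocytes and less RNA per adipocyte cannot be told apart.

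For the other 7 genes the intervals bound the E2 change rather than show its absence. Ucp1 changed by -0.49 ± 0.30 (interval -1.17 to 0.20, limma adjusted p = 0.332), and by -0.19 without Soy pool 1. Cox8b changed by -1.08 ± 0.55 (-2.32 to 0.16, adjusted p = 0.231), which became -0.32 without the 2 muscle-rich pools and 0.03 with the muscle mean as a covariate. Cidea changed by -0.39 ± 0.27 (-1 to 0.21, adjusted p = 0.38). The narrow ones were Ppargc1a at -0.10 ± 0.06 (-0.24 to 0.04), Dio2 at 0.13 ± 0.08 (-0.05 to 0.32), Elovl3 at 0.04 ± 0.10 (-0.19 to 0.26) and Ppara at 0.02 ± 0.11 (-0.24 to 0.27). The 3 Ppargc1a probe sets gave -0.11, -0.15 and -0.04.

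**Figure D3:**
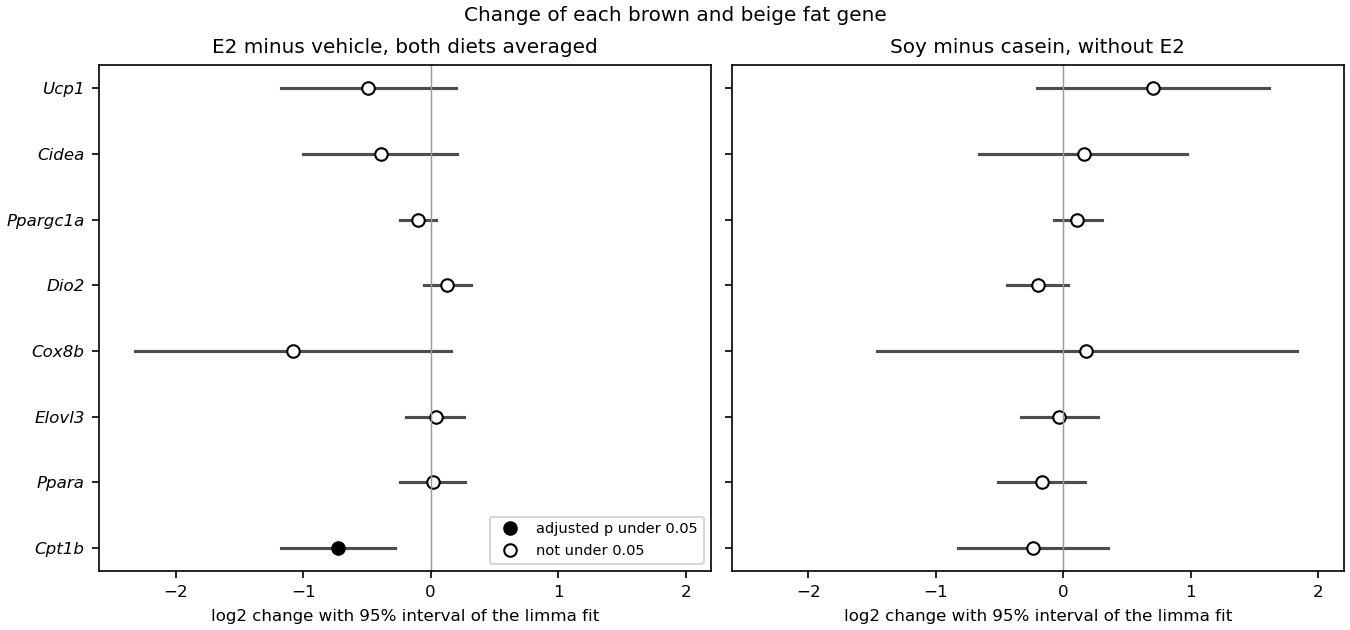
Log2 changes of the 8 genes (points) with 95% intervals of the limma fit (lines), for E2 minus vehicle averaged over both diets and for soy minus casein without E2. Cpt1b with E2 (-0.73, interval -1.17 to -0.28) is the filled point, and the widest intervals belong to Cox8b and Ucp1.

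Within each diet none of the 8 genes passed the test. In casein-fed rats E2 changed Cpt1b by -1.03 ± 0.29 (-1.69 to -0.37, limma adjusted p = 0.0958), where 2.43% of genes were called. Its groups did not overlap, as was so for 17.3% of all genes in that direction. In soy-fed rats the change of Cpt1b was -0.42 ± 0.26 (-1.01 to 0.17, adjusted p = 0.403), where 0.218% of genes were called. Leaving out 1 array moved that change to -0.18 (Soy pool 1), -0.26 (Soy plus E2 pool 1) or -0.66 (Soy plus E2 pool 3). Ppargc1a, averaged over its probe sets, was lower with E2 on every soy array (-0.15 ± 0.08, adjusted p = 0.324) and Dio2 higher (0.21 ± 0.11, adjusted p = 0.299), without overlap, as were 12% of all genes in the lower and 12.6% in the higher direction. Single Ppargc1a probe sets did overlap. In 1 of them Soy pool 3 (0.08) lay below Soy plus E2 pool 1 (0.12), and in another Soy pool 1 (-0.12) lay below all Soy plus E2 pools. At an unadjusted p under 0.05 (limma), 1 of the 8 genes passed in casein-fed rats, with 2792 of all 14218 genes, and 0 in soy-fed rats, with 2934 of all genes, so neither count stands above the background.

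The difference between the diets in the E2 change was tested as an interaction and passed for none of the 8 genes and for 0% of all genes (limma, 929 of 14218 genes and 0 of the 8 at an unadjusted p under 0.05). Cpt1b had the largest estimate among the 8 genes, 0.61 ± 0.40 (-0.28 to 1.49, adjusted p = 0.813). Ucp1 was at -0.52 ± 0.61 (-1.89 to 0.84), Cidea at -0.51 ± 0.54 (-1.73 to 0.70) and Cox8b at -0.42 ± 1.10 (-2.90 to 2.05).

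Soy protein without E2 changed none of the 8 genes past the threshold, and 0% of all genes were called (limma, 1472 of 14218 genes and 0 of the 8 at an unadjusted p under 0.05). Ucp1 had the largest difference, 0.70 ± 0.41 (-0.21 to 1.61, adjusted p = 0.566), and it was 0.10 without Soy pool 1. The difference of Cidea was 0.16 ± 0.36 (-0.66 to 0.97) and became -0.12 without that pool. Cox8b differed by 0.18 ± 0.74 (-1.46 to 1.83), with 1 muscle-rich pool in each group. Cpt1b differed by -0.24 ± 0.26 (-0.83 to 0.35), Dio2 by -0.20 ± 0.11 (-0.44 to 0.04), Ppara by -0.17 ± 0.15 (-0.51 to 0.17), Ppargc1a by 0.11 ± 0.08 (-0.07 to 0.30) and Elovl3 by -0.03 ± 0.13 (-0.33 to 0.27).

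With E2 on board, soy against casein also gave no call among the 8 genes, where 0.00703% of genes were called, and all 8 adjusted p-values were 0.999 (limma). At an unadjusted p under 0.05 there were 725 genes, 0 of them among the 8. Ucp1 was 0.18 ± 0.45 higher (-0.84 to 1.2), with the Soy plus E2 samples (0.15, -0.03 and -0.15) all above the 2 Casein plus E2 samples, as were 10.5% of all genes; among the single arrays the groups overlap, since Casein plus E2 pool 2 lay at -0.06. Cpt1b differed by 0.36 ± 0.29 (-0.30 to 1.02) and Cidea by -0.36 ± 0.41 (-1.27 to 0.55). The remaining 5 genes had estimates from -0.24 to 0.01.

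Around these 8 genes, 151 other genes of the brown fat program had been listed and 124 were measured. With E2, averaged over both diets, 16 of the 124 fell, 4 rose and 104 did not pass (16.1% called, against 12.2% of all genes), with a median change of -0.15. Over all genes 5.51% were called lower and 6.73% higher. Within casein-fed rats 5 passed, within soy-fed rats 1, and for soy without E2, soy with E2 and the interaction 0 each. The count of genes that fell moved with the arrays used. Leaving out 1 array gave 1 (Casein plus E2 pool 1), 3 (Casein pool 2), 8 (Casein pool 1), 9 (Soy pool 1, and also Soy pool 3) or 10 (Soy pool 2). Among the Soy plus E2 pools it gave 3 without pool 1, 4 without pool 2 and 27 without pool 3, and leaving out both muscle-rich pools gave 0. Calls over all genes, in either direction, moved too, from 1741 to 313 without Casein plus E2 pool 1 and 899 without Casein pool 2. They numbered 642 and 640 without Soy plus E2 pools 1 and 2, 2334 without pool 3 and 247 without both muscle-rich pools. The swing is therefore not read as particular to the brown fat genes.

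Adrb3, the beta-3 adrenergic receptor at the head of the pathway, had the largest fall among the 124 genes. It was at -2.15, -1.59 and 0.04 in Soy plus E2, 0.79, -0.04 and 0.21 in Soy, -1.76, -1.56 and -1.51 in Casein plus E2, and 0.74, 1.57 and 0.80 in Casein. All E2 arrays were below the others of their diet except Soy plus E2 pool 3, which was within the Soy range. The change was -2.12 ± 0.37 (limma adjusted p = 0.0124). In all, 5 of 16 measured signal genes fell and 0 rose (median -0.35), where 5.51% of all genes were called lower and 6.73% higher. Among those that fell were Prkar2b, a regulatory subunit of protein kinase A (-1.12 ± 0.31), Ptger3, a prostaglandin E receptor (-0.95 ± 0.25), and Adra2a, an alpha-2 adrenergic receptor (-0.49 ± 0.09). Of 19 white adipocyte genes 9 fell in the same comparison. The part of fat content in the falls of these signal genes and of the genes in the lists below was not tested. In whole glands fewer adipocytes and less RNA per adipocyte cannot be told apart.

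Of 17 measured thermogenic regulators 3 fell and 1 rose (median -0.08), where 5.51% of all genes were called lower and 6.73% higher. Ebf2 was at -0.63, -0.08 and -0.59 in Soy plus E2, 1.96, 0.08 and 0.21 in Soy, -0.27, -0.89 and -0.42 in Casein plus E2, and 1.05, 0.83 and 0.65 in Casein. No array with E2 reached the lowest array without, and the change was -1.24 ± 0.32 (limma adjusted p = 0.0369). The estrogen-related receptor gene Esrrg changed by -0.60 ± 0.14, the retinoid X receptor gene Rxrg by -0.46 ± 0.10 and Cebpb, a transcription factor of early fat cell differentiation, by 0.57 ± 0.16. Prdm16 had a change of -0.31 (adjusted p = 0.131) and Zic1 of -0.08 (adjusted p = 0.579).

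Among 29 other brown and beige markers 3 rose and 3 fell (median -0.14), where 6.73% of all genes were called higher and 5.51% lower. Fabp3, a fatty acid binding protein of heart, muscle, brown fat and mammary epithelium, was at 2.41, 2.87 and 0.98 in Soy plus E2, -1.65, -1.45 and -2.24 in Soy, 2.52, 3.01 and 2.89 in Casein plus E2, and -0.98, -1.70 and -0.99 in Casein. The groups lay far apart and the change was 3.91 ± 0.33 (limma adjusted p = 0.00166). S100b (-1.27 ± 0.34), the lipid droplet gene Cidec (-1.18 ± 0.31) and the amino acid transporter gene Slc36a2 (-0.97 ± 0.23) fell. Ucp2, a widely expressed relative of Ucp1, rose by 0.69 ± 0.14 and the receptor gene Tnfrsf9 by 0.87 ± 0.15; both were chosen after their values were seen.

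Among oxidation, respiratory and synthesis genes 5 fell and 0 rose, where 5.51% of all genes were called lower and 6.73% higher. Of 21 fatty acid oxidation genes 3 fell and 0 rose (median -0.13), namely Hadhb (-0.51 ± 0.14) and Acadm (-0.49 ± 0.11), which oxidise fatty acids, and Cpt2, the partner of Cpt1b inside the mitochondrion (-0.42 ± 0.12). Of 28 respiratory chain and mitochondrial biogenesis genes 1 fell (median -0.10), Ogdh of the citric acid cycle (-0.44 ± 0.12). Of 13 elongation and lipid synthesis genes 1 fell (median -0.39), Dgat2, which makes triglyceride (-1.15 ± 0.30). The adjusted p-values of these 5 genes lay between 0.0235 and 0.0491 (limma). Soy plus E2 pool 3 stood near 0 for many of these genes, for example at -0.03 for Dgat2 against -1.36 and -1.21 in the other Soy plus E2 pools. For Dgat2 it was not alone in this. Casein plus E2 pools 2 and 3 were at -0.04 and -0.03, and pool 1 was at -0.90.

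**Figure D4:**
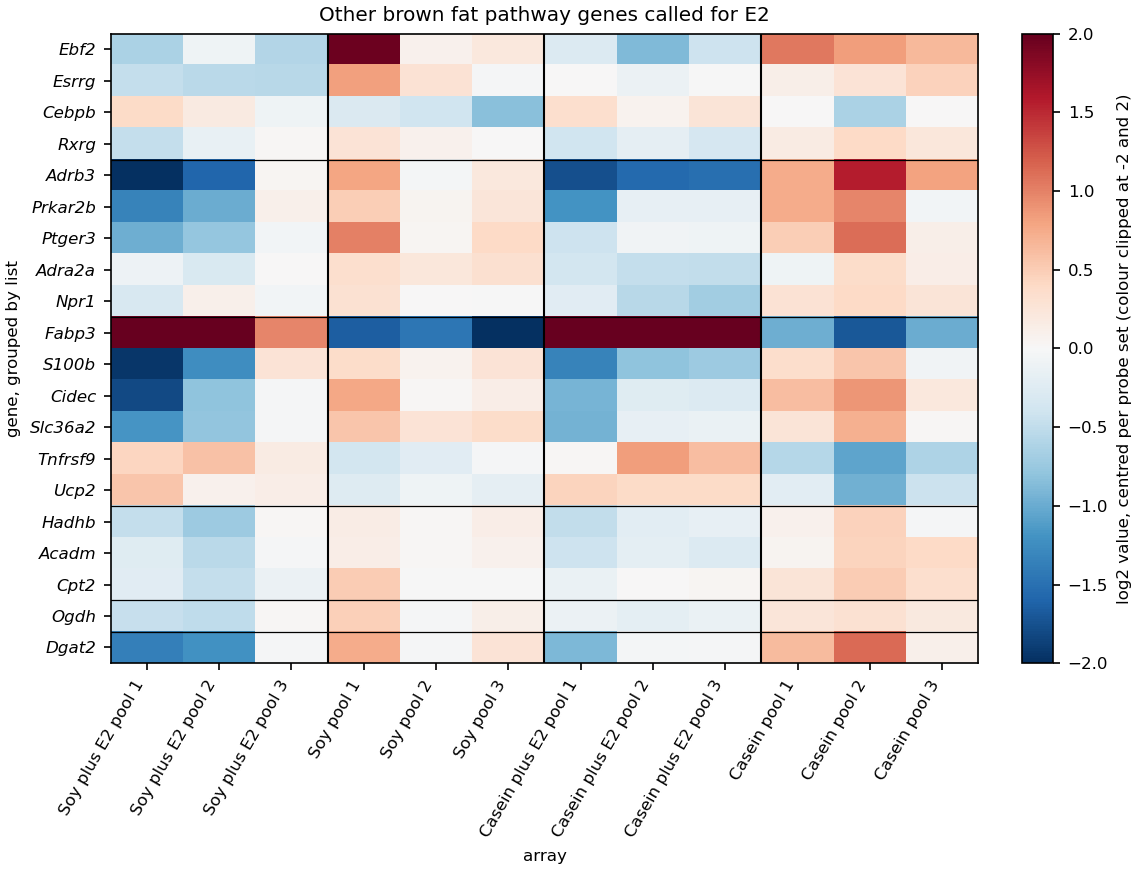
Centred log2 values (colour, clipped at -2 and 2) of the 20 other brown fat genes called with E2 on 12 arrays, with rows grouped by list. Fabp3, Cebpb, Tnfrsf9 and Ucp2 are the 4 genes that rose, and Soy plus E2 pool 3 is paler than the other E2 arrays in most rows.

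The genes whose values ran most alike with each member are given by Pearson r over the 11 samples, which share their arrays and groups. For Cpt1b these were Slc25a24 (r = 0.977), Atp9a (0.969) and Plaat5 (0.968), and for Cidea Lyrm7 (0.955), Cyc1 (0.953) and Pc (0.951). For Cox8b they were Hhatl (0.969), Tmod1 (0.967) and Mypn (0.966). These stayed at 0.933 or more when the member's highest sample was left out. For Ucp1 they were Tmem160 (0.916), Cdon (0.915) and Zfp524 (0.906), but without Soy pool 1 the values were 0.368, 0.433 and 0.131, so the likeness rests on that sample. The genes most like Ppargc1a were Igsf6, Zfp457 and Naa15 (0.874 to 0.891), those most like Dio2 were Slc25a48, Klhl10 and Nop58 (0.882 to 0.916), those most like Elovl3 were Dync2h1, Fam168a and Hs3st5 (0.873 to 0.890) and those most like Ppara were T2, Nudt8 and Pla2g4e (0.783 to 0.887).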

How the data were processed

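Total RNA of mammary gland pairs was labelled and hybridised to Affymetrix arrays, per the labels' protocols. The authors deposited 1 table with 31099 probe sets and 12 arrays. The submitters' processing notes name GCOS, the array maker's software. How probe sets were summarised and normalized, and the base of the logarithm, is not given in the sources used here. From their range (at most 9.85 within a probe set) the deposited values were taken to be log2, and each probe set had a median of 0. The description label names liver, but the source label gives mammary gland. The members and lists were chosen with earlier results of these data known.

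Probe sets with 1 gene in the platform annotation (20832) were averaged to 14218 genes; 20764 matched RefSeq (GRCr8) by gene ID. Groups came from sample titles. limma 3.58.1 (R 4.3.3) fitted 4 group means to 11 samples (7 residual degrees of freedom) without a trend, and 6 contrasts were tested two-sided, with calls at an adjusted p (Benjamini-Hochberg, over all genes) under 0.05. No filter on dim probe sets was possible. Errors are standard errors of the fit, and precision is limited by the number of arrays. Named were all 8 members, up to 4 genes of largest change called for E2 per brown fat list, 3 most similar genes per member and up to 3 per marker list; Ucp2, Tnfrsf9, Pou3f3, Nnat and the genes described in Soy pool 1 were named after their values were seen. Scripts were tested on simulated data. Alternatives were 12 separate arrays, pool number as a block, quantile normalization, median centring, array weights, other probe set rules, only the groups compared, the spike-in split, the muscle pools or muscle mean, and leaving out each array. Counts of the other brown fat genes under these alternatives were added after seeing the data.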

Additional observations from a re-analysis of the deposited data

How the results depend on the processing

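Of 1040 recomputed changes of the 8 members, 974 kept their direction and side of the threshold, 50 changed sign, 13 fell back over the threshold and 3 newly passed it (Elovl3 for E2 in soy, estimated at 0, has no direction and is counted among the kept); the causes were not tested. Members called for E2 numbered 1, and 0 with the pool number as a replicate block (the pool numbers did not pair the samples: same-number pairs correlated at -0.42 to 0.46; Cpt1b -0.69, limma adjusted p = 0.0526), quantile normalization, the spike-in split, without both muscle-rich pools and with the muscle covariate, and 0 to 1 with an array left out; still called without Casein pool 3, Casein plus E2 pool 3, Soy pool 3 or Soy plus E2 pool 3. For E2 in casein, members called numbered 1 with 12 separate arrays and with array weights, and for E2 in soy to 1 with array weights (Cox8b -2.34), each against 0. Other brown fat pathway genes lower with E2 numbered 16, and 30 with array weights, 0 without both muscle-rich pools, 0 with the muscle covariate and 1 to 27 with an array left out; higher ones numbered 4, and 9, 1, 1 and 2 to 8. Called genes over all 14218 ranged from 65 (muscle covariate) to 3317 (array weights) for E2 (1741), 5 to 1408 for E2 in casein (346), 0 to 2035 for E2 in soy (31), 0 to 1588 for soy without E2 (0), 0 to 13 for soy with E2 (1) and 0 to 5 for the interaction (0).

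Sign changes, all of changes that had not passed, were as follows. For E2: Cox8b 0.03 and Elovl3 -0.03 (muscle covariate), Ppara -0.02 (array weights) and -0.03 (spike-in split). For E2 in casein: Ucp1 0.10 (spike-in split), Cidea 0.17 and Dio2 -0.03 (without muscle-rich pools), Ppargc1a 0.03, Cox8b 0.38 and Elovl3 -0.01 (muscle covariate). For soy without E2: Cidea -0.18 (array weights), Cox8b -0.09 and Elovl3 0.14 (spike-in split), Elovl3 0.05 (without muscle-rich pools). For soy with E2: Ppargc1a -0.01 and Ppara 0.03 (quantile), Dio2 0.01 and Ppara 0.01 (12 separate arrays, and also with the block), Cox8b 0.06 (muscle covariate). For the interaction: Elovl3 0.08 (array weights). With an array left out, ranges that crossed 0 were, for E2, Ppara -0.04 to 0.10; for E2 in casein, Cidea -0.42 to 0.17, Dio2 -0.08 to 0.11 and Ppara -0.17 to 0.01; for E2 in soy, Ppara -0.03 to 0.26 and Elovl3 -0.07 to 0.13; for soy without E2, Cidea -0.12 to 0.46, Cox8b -0.62 to 0.91 and Elovl3 -0.15 to 0.04; for soy with E2, Ppargc1a -0.01 to 0.03, Dio2 -0.09 to 0.09, Elovl3 -0.18 to 0.02 and Ppara -0.14 to 0.15; for the interaction, Ucp1 -0.88 to 0.08, Cox8b -1.14 to 0.38 and Elovl3 -0.15 to 0.05.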
